A study of Mus musculus with 3 samples.

Results

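The peroxiredoxins and other antioxidant enzymes were followed in CD133+ cells of mouse bone marrow through 10 genes, Prdx1, Prdx2, Prdx3, Prdx4, Prdx5, Prdx6, Sod1, Sod2, Cat and Gpx1. The members were chosen by name, and each of the 10 was found among the 27998 genes of the count matrices. Cells were sorted by FACS from C57BL/6 mice, and 3 libraries were made with the 10x Chromium 3′ kit, each from 3 mice whose cells cannot be told apart. The young and the control library are labelled 3 months of age, and the old library is labelled 27 months, while the series text gives 18.5 months for old mice. That text also calls the cells intestinal, whereas the series title and the labels give bone marrow, which is the name used here. No treatment, transgene or deletion is named for any library. Each group is therefore 1 library of pooled mice, no test between groups was possible, and age and library cannot be told apart. Levels are CPM: the UMIs of a gene, each standing for 1 captured mRNA molecule, divided by all UMIs of the cells in question and scaled to 1000000. Each interval is an exact 95% interval that covers counting error only. The kit counts 1 end of each molecule, so levels of different genes can be set side by side without a correction for gene length.

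Superoxide dismutases convert superoxide into hydrogen peroxide, which catalase, glutathione peroxidases and peroxiredoxins then break down. Neutrophils and their precursors are a particular setting for this chemistry, since mature neutrophils make superoxide with the NADPH oxidase, and myeloperoxidase (Mpo) uses hydrogen peroxide to make hypochlorous acid. Mpo is transcribed in promyelocytes, an early stage of neutrophil formation, and its mRNA is lost as the cells go on to make specific and then gelatinase granules.

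After filtering, 7378 young, 9681 old and 9780 control cells were kept, with median UMI counts of 10174.5, 12690.0 and 9560.5 per cell. The endothelial name of the sort was not borne out by the mRNA of defining markers. Prom1, which encodes CD133, was at 43.8 to 52.6 CPM. Cdh5, Kdr, Emcn and Tek were each below 1 CPM in every library, and Pecam1 was at 1.56 to 3.69 CPM. The study's functional evidence for endothelial potential, from uptake assays, Matrigel plugs and cell transfer, was not examined here. Granule genes of neutrophil precursors (Camp, Ltf, Ngp, Lcn2 and Chil3) summed to 113004 to 131098 CPM. The young library stood apart in its other blood cells. Other blood cells were sought with 8 marker lists. At least 3 markers of 1 list, and at least 10 such UMIs per 10000, were found in 692 young cells (9.38%). The same held for 77 old cells (0.795%) and 80 control cells (0.818%). Library comparisons of the 10 members below are given with and without these cells. Those of other antioxidant genes over all kept cells are given with them alone. Of the 692 young cells, 355 carried monocyte, 109 B progenitor and 101 dendritic cell markers. A further 63 carried NK and T cell, 33 basophil and mast cell, and 25 erythroid markers. Pairs of libraries shared 120 to 161 cell barcodes, at most 1.52% of a library.

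The remaining cells were put in 5 bands by Mpo UMIs per 10000 UMIs of the cell (under 3, 3 to under 10, 10 to under 30, 30 to under 100, and 100 or more). Bands are ranges of a value, not cell types. From the lowest to the highest band they held 2180, 2557, 484, 915 and 550 young cells, 3961, 3418, 960, 1172 and 93 old cells, and 2722, 4374, 912, 1402 and 290 control cells. The highest band was thus 8.23% of the young, 0.968% of the old and 2.99% of the control cells in bands.

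Over all kept cells the 10 genes spanned a wide range of levels. Prdx5, the atypical 2-Cys peroxiredoxin of mitochondria, peroxisomes and cytosol, had the highest level in each library, at 2194 (young), 2050.2 (old) and 1878 CPM (control). Gpx1, the selenium-dependent glutathione peroxidase of the cytosol, followed at 1511, 1544 and 1402 CPM. Prdx6, the 1-Cys peroxiredoxin with phospholipase activity, was at 313, 283 and 327 CPM, above Prdx1 at 226, 215 and 157 CPM. Prdx2 was at 73.1, 58.6 and 50.8 CPM and Sod2, the manganese enzyme of mitochondria, at 53.2, 56.4 and 66.3 CPM, with overlapping intervals in the old library and the opposite order in the control. Prdx3, the mitochondrial peroxiredoxin, was at 33.2, 30.5 and 33.3 CPM. Sod1, the cytosolic copper-zinc enzyme, was at 16.7, 11.2 and 10.6 CPM, catalase (Cat) of peroxisomes at 11.5, 7.70 and 7.99 CPM, and Prdx4, the peroxiredoxin of the endoplasmic reticulum, at 14.8, 3.23 and 1.67 CPM. In the young library the order of these 3 was Sod1, Prdx4, Cat, and in the old and control libraries Prdx4 was the lowest.

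In GRCm38, with GENCODE M21 gene models, Prdx1 lies at chr4:116685544-116700822, Prdx2 at chr8:84969587-84974834, Prdx3 at chr19:60864051-60874556, Prdx4 at chrX:155323918-155340754, Prdx5 at chr19:6906697-6910106 and Prdx6 at chr1:161240112-161251219. Sod1 lies at chr16:90220754-90226329, Sod2 at chr17:13006846-13040063, Cat at chr2:103453849-103485160 and Gpx1 at chr9:108338903-108340343. Counted genes on the other strand overlap Prdx2 (Rnaseh2a and Junb), Prdx5 (Trmt112) and Sod1 (Scaf4), and whether the counting used strand is not given in the sources used here. The near copy Prdx6b is counted as a gene of its own, so the level of Prdx6 carries that uncertainty.

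Several antioxidant genes are known targets of NRF2, the factor that answers oxidative stress, and stretches upstream of members that hold its core motif are therefore shown. RefSeq windows of 300 bases around the start (GRCm38.p6, mostly before it) were found for 9 of the members, and Prdx6 had none. The letters TGACNNNGC were searched on both strands, and were present in Prdx1 and Sod1, in both as the reverse complement. Of all 32851 windows of this length, 12.4% hold them. The stretches lie before the RefSeq start of Prdx1 (chr4:116685454-116685486) and that of Sod1 (chr16:90220694-90220726), both on the + strand, with the match in capitals.
Prdx1: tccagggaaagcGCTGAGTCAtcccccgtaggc
Sod1: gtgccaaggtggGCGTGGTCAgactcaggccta
The letters GAGGAAGT, a core of the myeloid factor PU.1, were in none of the 9 windows and in 3.20% of all windows. These are descriptions of letters, and binding was not measured.

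Across the Mpo bands the members followed different courses. Prdx1, Prdx2, Prdx3, Sod1 and Cat had higher levels in the cells with the most Mpo than in those with the least, Gpx1 was higher by less, and Prdx5 was lower, in each of the 3 libraries. Of the 9 members with at least 10 CPM in either band of each library, 6 were more than 1.5-fold higher in the highest band in all 3 libraries, where 48% of the 5770 genes compared were also higher. Sod1 and Cat reached the minimum level through the highest band alone, so their place in that count follows in part from the minimum. Prdx5 was the 1 member more than 1.5-fold lower, against 7.35% of all genes. The median log2 ratio of all genes compared was 0.71 (young), 0.75 (old) and 0.69 (control). The count of higher members is thus to be read against a background in which a large share of genes was higher too.

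**Figure D1:**
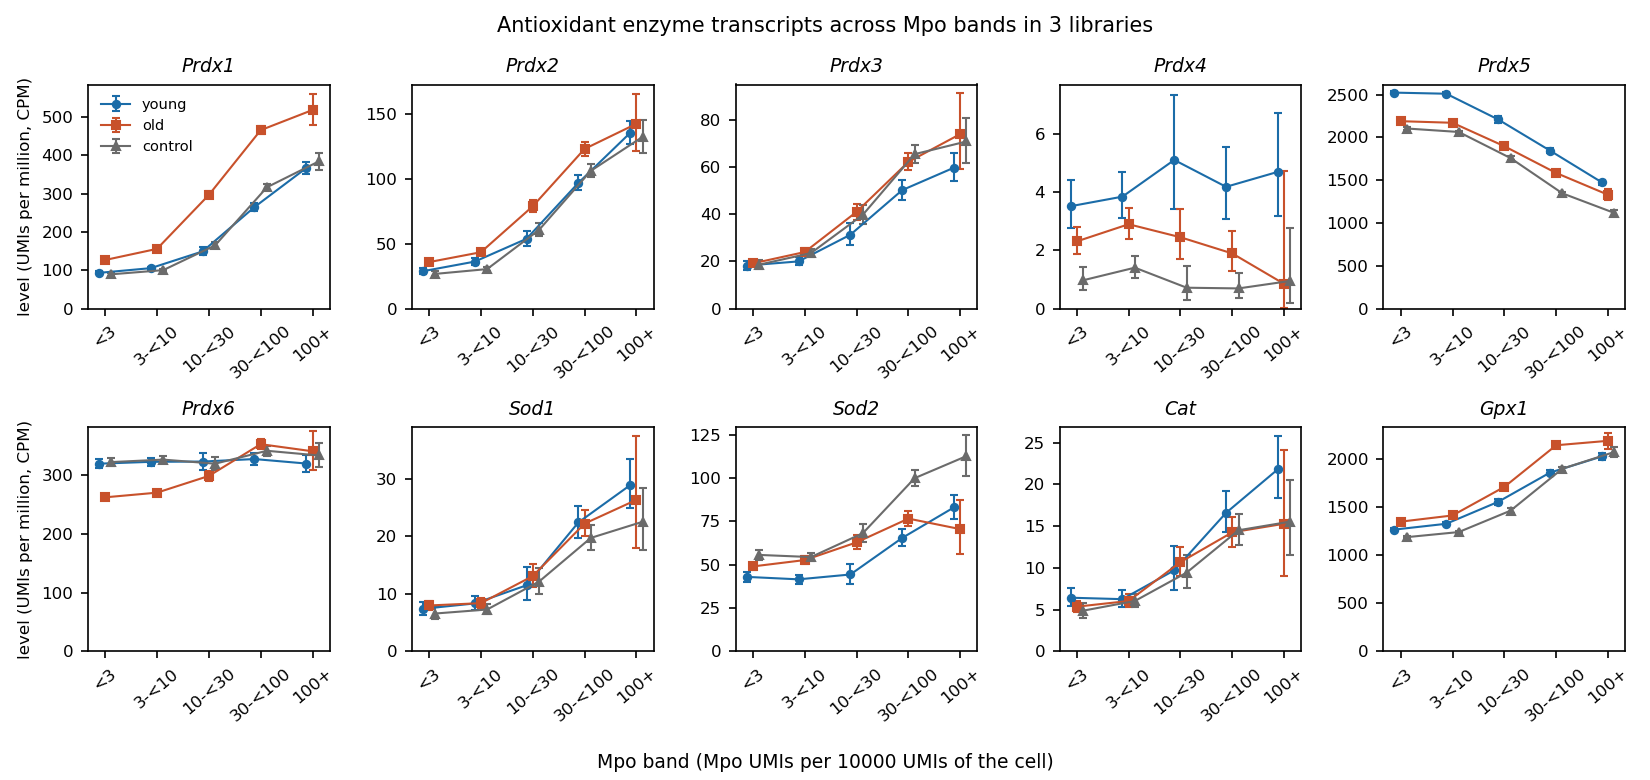
Levels of the 10 genes (y axis, CPM from 0) in 5 bands of Mpo UMIs per 10000 UMIs (x axis) in the young, old and control library. Points are 1 library each and bars are exact 95% counting intervals. Prdx1 climbs from 89.5 to 127 CPM in the lowest band to 367 to 519 CPM in the highest, with the old library above the others, while Prdx5 descends and Prdx6 stays between 262 and 353 CPM.

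Prdx1, a typical 2-Cys peroxiredoxin of the cytosol, had a level of 93.2, 106, 149, 265 and 367 CPM from the lowest to the highest Mpo band of the young library. In the old library the levels were 127, 156, 297, 466 and 519 CPM. In the control library they were 89.5, 100.4, 165, 317 and 384 CPM. Each step was upward in each library, and the old library was the highest of the 3 in each band. The log2 ratio of the highest over the lowest band was 1.98 (interval 1.89 to 2.07) in young, 2.03 (1.91 to 2.15) in old and 2.1 (2.0 to 2.2) in control cells, so that the 3 intervals overlapped. With CPM computed without the 50 genes with the most UMIs, the mean log2 ratio of Prdx1 over the libraries went from 2.04 to 1.255.

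Prdx2, the peroxiredoxin best known as an abundant red cell protein, had lower levels with the same course. It was at 28.8, 36.2, 53.8, 97.0 and 136 CPM in the bands of the young library and at 35.9, 43.5, 78.9, 123 and 143 CPM in those of the old. In the control library it was at 26.8, 30.5, 60.6, 106 and 133 CPM. The bands differed by 2.23 (2.08 to 2.39), 1.99 (1.75 to 2.22) and 2.31 (2.13 to 2.49) on the log2 scale in young, old and control cells. Prdx3 went from 18.2 to 59.6 CPM in young, from 19.1 to 73.9 CPM in old and from 18.6 to 70.7 CPM in control cells, with each step upward in each library. Its ratios were 1.71 (1.5 to 1.92), 1.95 (1.61 to 2.27) and 1.93 (1.69 to 2.16), again with overlapping intervals. Without the 50 most abundant genes the mean log2 ratio of Prdx2 went from 2.18 to 1.4 and that of Prdx3 from 1.86 to 1.08.

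The remaining members that were higher with Mpo divided into rare and abundant transcripts. Sod1 went from 7.39 to 28.9 CPM in young, from 7.97 to 26.3 CPM in old and from 6.57 to 22.5 CPM in control cells, with log2 ratios of 1.97, 1.72 and 1.78. Cat went from 6.42 to 21.8, from 5.35 to 15.3 and from 4.87 to 15.5 CPM, with log2 ratios of 1.76, 1.52 and 1.68. For both genes the highest band of the old library rested on few molecules, 31 UMIs of Sod1 and 18 of Cat. Without the 50 most abundant genes the mean log2 ratio went from 1.82 to 1.04 for Sod1 and from 1.65 to 0.87 for Cat. Gpx1 was at 1269, 1329.8, 1558, 1863 and 2031 CPM in the young bands, 1352, 1416, 1714, 2148 and 2195 CPM in the old and 1190.3, 1243, 1467, 1904 and 2078 CPM in the control. Its log2 ratio of 0.68 (0.65 to 0.71), 0.70 (0.64 to 0.76) and 0.80 (0.76 to 0.84) was close to the median of all genes. The direction for Gpx1 depended on the scaling: with CPM computed without the 50 genes with the most UMIs, its mean log2 ratio over the libraries went from 0.73 to -0.055, and the median of all genes went from 0.72 to -0.07.

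Sod2, which detoxifies superoxide in the mitochondrial matrix, was at 42.9, 41.5, 44.3, 65.4 and 83.0 CPM in the young bands and at 55.6, 54.4, 68.1, 99.9 and 113 CPM in the control bands. In the old library it was at 49.0, 52.6, 62.8, 76.5 and 70.5 CPM, with 83 UMIs behind the last value. Its log2 ratio of 0.95 (young) and 1.02 (control) was past 1.5-fold, and that of 0.53 (0.19 to 0.84) in the old library was not. Without the 50 most abundant genes its mean log2 ratio went from 0.83 to 0.05. Sod2 was the lowest in the young library in 4 of 5 bands and the highest in the control library in each band.

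Prdx5 ran the other way. It was at 2525, 2512, 2211, 1847 and 1476 CPM in the young bands, at 2191, 2172, 1898, 1585 and 1330.4 CPM in the old and at 2105, 2065, 1759, 1347 and 1118 CPM in the control. Each of the 4 steps was downward in each library, and the log2 ratio of the highest over the lowest band was -0.77 (-0.81 to -0.74), -0.72 (-0.79 to -0.65) and -0.91 (-0.96 to -0.86). The young library had the highest level and the control library the lowest in each band. The direction was the same under each scaling tried, with a mean log2 ratio of -0.58 for UMIs per cell and -1.58 without the 50 most abundant genes.

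Prdx6 was nearly level across the bands. It stayed at 319 to 327 CPM in young cells and at 319 to 341 CPM in control cells, with log2 ratios of the highest over the lowest band of 0.00 (-0.07 to 0.07) and 0.05 (-0.04 to 0.14). In the old library it went from 262 CPM in the lowest band to 340.5 CPM in the highest, a log2 ratio of 0.38 (0.23 to 0.52) whose interval lay above those of the other libraries. Without the 50 most abundant genes the mean log2 ratio of Prdx6 over the libraries went from 0.14 to -0.64. The old library was the lowest in 3 bands and the highest in 2. Prdx4 was near the limit of detection in the bands, at 3.52 to 5.12 CPM in young, 0.849 to 2.90 CPM in old and 0.694 to 1.41 CPM in control cells. With 1 UMI in the highest old band, no course across the bands could be read for Prdx4.

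As a description over the 15 points of 5 bands in 3 libraries, which share libraries and depth, log2(CPM + 1) of Prdx1 and Prdx2 had a Pearson correlation of 0.98, Prdx1 and Gpx1 one of 0.98, and Prdx1 and Prdx5 one of -0.85. Among 1829 genes with at least 50 CPM, the most like Prdx1 were Ndufa11 (0.993), Dnajb6 (0.990) and 2700060E02Rik (0.987), and the most like Prdx2 were Slc25a3 (0.997), 2700060E02Rik (0.996) and Eif3e (0.995). The genes most like Prdx3 were Eif3c, Mif and 2010107E04Rik (0.995 to 0.996), and those most like Gpx1 were 2700060E02Rik, Morf4l1 and Tmem160 (0.990 to 0.993). Sod1 was most like Plac8, Tcf25 and Rasgrp2 (0.988 to 0.992), Cat most like Ndufa1, Etfb and Atp5g3 (0.990 to 0.992), and Sod2 less closely like Dnaja2, Ndufa8 and Hdgf (0.942 to 0.960). Prdx5 was most like Gsn, Rab3d and Slfn2 (0.978 to 0.990). For Prdx6 and Prdx4 no gene passed 0.923. The most like Prdx6 were Eif1b, Med28 and Fli1. Those most like Prdx4 were Gm8797, Sp100 and Bloc1s1, but Prdx4 was near the limit of detection at these points, so no pattern is read from them.

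The lowest Mpo band holds both precursors and maturing neutrophils, so it was divided again by the summed UMIs of the late genes Retnlg, Mmp8, Mmp9 and Cxcr2 per 10000 UMIs, into under 5, 5 to under 20, and 20 or more. These bands held 1021, 931 and 228 young, 629, 2256 and 1076 old, and 1997, 546 and 179 control cells. In the cells with the most late gene UMIs the level of Prdx5 was higher, and those of Prdx2, Prdx3, Prdx6, Sod2 and Gpx1 were lower, in each library. Of the 7 members at the minimum level, Prdx3 was the 1 member more than 1.5-fold lower in all 3 libraries. Of the 4751 genes compared, 20.3% were likewise lower. In the control library Prdx3 reached the minimum through the lowest late gene band alone, so its count follows in part from the minimum. More than 1.5-fold higher were 0 members, against 7.35% of genes. The median log2 ratio of all genes compared was -0.25 (young), -0.34 (old) and -0.31 (control). With CPM computed without the 50 most abundant genes, with a minimum of 50 CPM, at a limit of 2-fold, or after thinning each cell to 3000 UMIs, 0 members were past the limit.

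Prdx3 had a level of 20.3, 16.7 and 11.8 CPM from the lowest to the highest late gene band in young, 22.8, 19.4 and 15 CPM in old and 19.5, 16.5 and 9.0 CPM in control cells. The highest late gene band held 17 (young), 140 (old) and 9 (control) UMIs of Prdx3, and the log2 ratios of -0.78 (-1.58 to -0.06), -0.61 (-0.93 to -0.29) and -1.12 (-2.26 to -0.18) had wide intervals in the young and the control library. Prdx5 was at 2416, 2555 and 3156 CPM in young, 2096, 2105 and 2533 CPM in old and 2050.2, 2261 and 2534 CPM in control cells. Its log2 ratios of 0.39, 0.27 and 0.31 were each above 0 by more than the counting error and within 1.5-fold. Prdx5 was thus highest where late genes were highest and lowest where Mpo was highest. As UMIs per cell it was lower with late genes, by a mean log2 ratio of -0.39, and the median of all genes was then -1.02, since cells with many late gene UMIs had fewer UMIs in all, with medians of 4948 (young), 8350 (old) and 4599 (control).

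Prdx1 went different ways with late genes. In the old library it was at 149, 132 and 91.9 CPM and in the control library at 93.1, 82.3 and 48.0 CPM, log2 ratios of -0.69 (-0.82 to -0.57) and -0.96 (-1.40 to -0.54). In the young library it was at 89.9, 94.3 and 112 CPM, a ratio of 0.31 (0.06 to 0.55). The young value in the highest late gene band rested on 160 UMIs in 228 cells. The log2 ratio of Gpx1 was -0.17 (young), -0.15 (old) and -0.22 (control), and that of Prdx6 -0.17, -0.36 and -0.33.

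**Figure D2:**
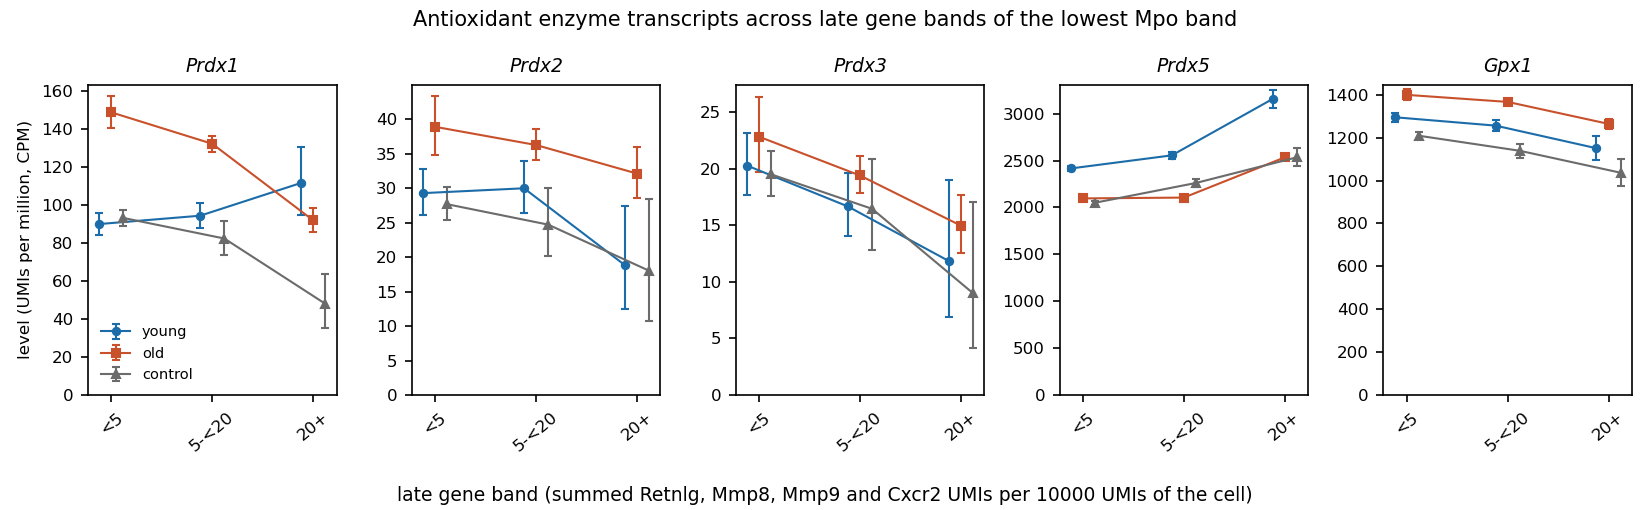
Levels of 5 genes (y axis, CPM from 0) in the cells of the lowest Mpo band, divided by the summed UMIs of 4 late genes per 10000 UMIs (x axis), in each library, with exact 95% counting intervals. Prdx5 reaches 2533 to 3156 CPM in the last band, Prdx3 ends at 9.0 to 15 CPM, and Prdx1 goes up in the young library and down in the others.

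Over all kept cells, old and young cells differed little in most members. Of the 10 members, 0 were more than 1.5-fold higher in the old library, against 4.36% of the 5761 genes compared, and Prdx4 was more than 1.5-fold lower, against 14.7% of genes. The median log2 ratio of all genes compared was -0.15. Prdx4 was at 3.23 CPM (2.91 to 3.57) in the old and 14.8 CPM (13.9 to 15.6) in the young library, a log2 ratio of -2.19 (-2.36 to -2.02). Prdx4 reached the minimum level through the young library alone, so its count as lower follows in part from the minimum. Prdx1 differed by -0.07, Prdx2 by -0.32, Sod1 by -0.58 and Cat by -0.58, and Gpx1 by 0.03 on the log2 scale. The values of Sod1 and Cat were just within the limit of 1.5-fold. As UMIs per cell, which moved the median of all genes to 0.14, Prdx1 stood at 0.22.

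The same members were compared with the control library, whose label has the age of the young one. Between the old and the control library, 0 of the 8 members at the minimum level were more than 1.5-fold higher (5.37% of 5470 genes) and 0 were lower (8.78%). Prdx1 was nearest to the limit, at 215 CPM in old and 157 CPM in control cells, a log2 ratio of 0.46. Between the control and the young library, 0 members were higher (1.59% of 5728 genes) and 2 were lower (6.62%). These were Prdx4 with a log2 ratio of -3.15 and Sod1 with one of -0.65. Prdx4 again reached the minimum level through the young library alone. The 3 comparisons share libraries and are given side by side.

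In the young library, several members had a large share of their UMIs in the cells with markers of other blood cells. These cells held 8.17% of the UMIs of the young library, but 75.1% (72.5 to 77.7) of its Prdx4 UMIs, 36.6% (35.8 to 37.3) of Prdx1, 31.4% of Prdx2, 31.3% of Sod1 and 22.4% of Cat. For Prdx5 and Prdx6 the share was below that of all UMIs, at 4.33% and 5.49%. In the old library the share was 24.4% for Prdx4, 2.89% for Prdx1 and at most 2.84% for the other 8 members, where these cells held 0.608% of UMIs. In the control library it was 35.6% for Prdx4, 3.43% for Sod1 and 3.20% for Prdx1, beside 0.663% of UMIs.

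**Figure D3:**
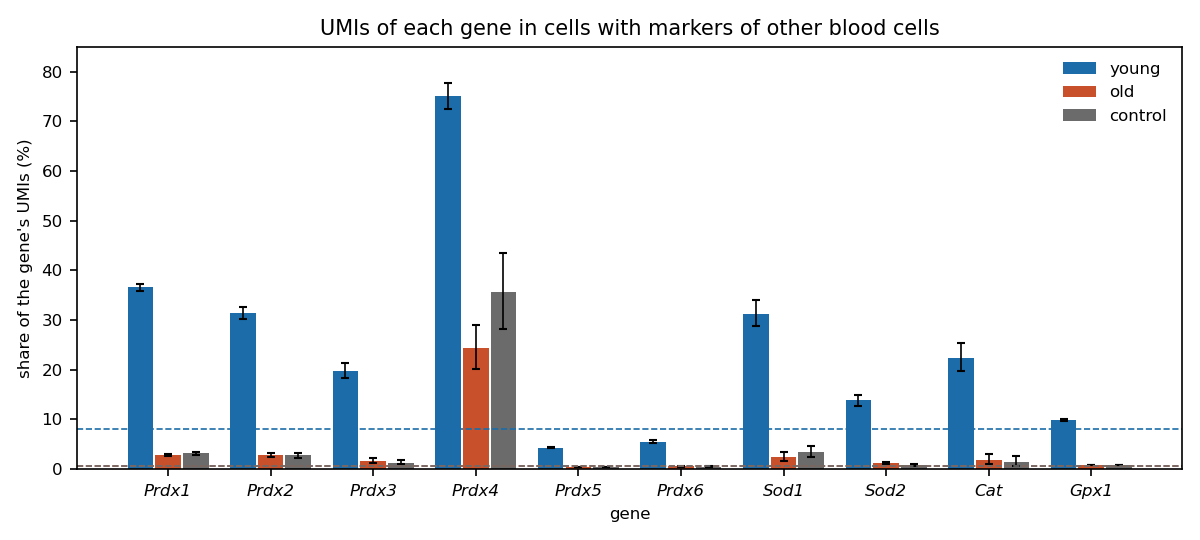
Share of each gene's UMIs (y axis, %, from 0) found in cells with markers of other blood cells, in each library, with exact 95% binomial intervals for counting error. Dashed lines mark the share of all UMIs in those cells, 8.17% in the young, 0.608% in the old and 0.663% in the control library. Prdx4, Prdx1, Prdx2 and Sod1 stand above 31% in the young library.

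The levels within these cells show which of them carried each enzyme. Cells with monocyte markers had 1285 (young), 1262 (old) and 1266 CPM (control) of Prdx1, with intervals that overlapped, and 178, 126 and 173 CPM of Prdx4. In the young library, cells with B progenitor markers had 861 CPM of Prdx1 and 137 CPM of Prdx4, and cells with dendritic cell markers 666 and 122 CPM. No UMI of Prdx4 was found in the 33 young cells with basophil and mast cell markers. The 25 cells with erythroid markers had 1560.4 CPM of Prdx2 (1427 to 1703), above each other group of young cells, and 235 CPM of Prdx3. After thinning each cell to 3000 UMIs, 33.2% of young cells with monocyte markers and 1.01% of young cells of the lowest Mpo band had a Prdx4 UMI. Free RNA in the droplets can give such a low share, and its part in the levels of Prdx4 in the bands was not tested.

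A choice made after seeing the data was to leave out the cells with markers of other blood cells. Of the members at the minimum level, 0 were then past 1.5-fold in each of the 3 library comparisons. Beside this, 15.6% of all genes were past it for old over young and 6.12% for control over young. For old over control the share of all genes is not given here, so that count of 0 has none beside it. Prdx1 was then at 156 CPM in young, 210.1 CPM in old and 153 CPM in control cells, so that the log2 ratio of old over young went from -0.07 to 0.43, that of old over control stayed at 0.46, and that of control over young went from -0.52 to -0.03. Prdx2 went from -0.32 to 0.07 and Sod1 from -0.58 to -0.19 for old over young. Prdx4 and Cat were then below the minimum level in each library and were not counted. Prdx4 was at 3.99, 2.46 and 1.08 CPM in young, old and control cells, past 1.5-fold between each pair. Its log2 ratio of old over young was -0.70. Other markers were not removed in full: the 46 marker genes of the 8 lists still summed to 1066 CPM in the young and 486 CPM in the old library. Nkg7 made 745 and 429 CPM of these sums. Over all kept cells Nkg7 was at 718 and 428 CPM, so its level was not lowered by leaving cells out.

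The libraries also differed in how their cells were spread over the Mpo bands, and the means of the 5 bands with equal weight were therefore compared. The bands also leave out the cells with markers of other blood cells, so these values are to be set beside those without such cells. The median of all genes was then -0.00029 for old over young. Prdx1 was past 1.5-fold in that comparison, with a log2 ratio of 0.67 where it had been at 0.43 without those cells, and at 0.57 for old over control and 0.11 for control over young. Prdx2 stood at 0.27, 0.25 and 0.02 and Gpx1 at 0.13, 0.16 and -0.03. Sod1 stood at -0.01 for old over young, where it had been at -0.19 without those cells. Prdx4 stood at -1.04 for old over young, with levels under the minimum.

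**Figure D4:**
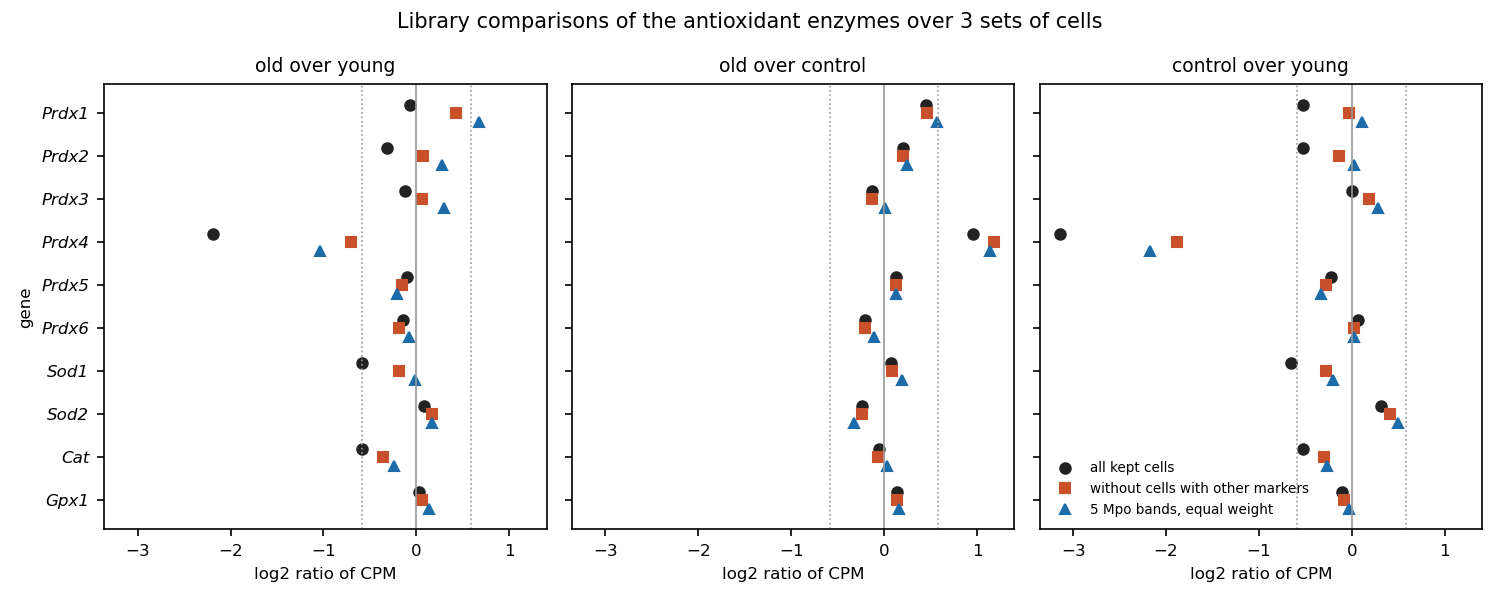
Log2 ratio of CPM (x axis, 1 value for each gene) between the libraries, over all kept cells, without the cells with markers of other blood cells, and as the mean of 5 Mpo bands with equal weight. Dotted lines mark 1.5-fold. Prdx1 moves from -0.07 to 0.43 and 0.67 for old over young and lies at 0.46 to 0.57 for old over control.

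Within the bands, Prdx1 was higher in the old library than in both others throughout. The log2 ratio of old over young was 0.44 (0.37 to 0.52), 0.56 (0.50 to 0.63), 0.99 (0.88 to 1.1), 0.81 (0.75 to 0.87) and 0.50 (0.37 to 0.63) from the lowest to the highest band. The ratio of old over control was 0.50, 0.64, 0.85, 0.56 and 0.43, with no interval that reached 0. The difference was thus greatest in cells with 10 to under 30 Mpo UMIs per 10000, where Prdx1 was at 297 CPM in old, 149 CPM in young and 165 CPM in control cells.

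Prdx2 was also highest in the old library in each band, by 0.31, 0.26, 0.55, 0.35 and 0.07 over young and 0.42, 0.51, 0.38, 0.21 and 0.11 over control. In the highest band both intervals held 0. After thinning each cell to 3000 UMIs the bands were formed anew from the thinned counts, so they did not hold the same cells. Prdx2 in the highest of these bands was at 99.2 CPM in old, 123.9 CPM in young and 124.2 CPM in control cells. No interval was computed for these values, and the old one rests on few UMIs. Gpx1 was highest in the old library by a small margin, by 0.09, 0.09, 0.14, 0.21 and 0.11 over young and 0.18, 0.19, 0.23, 0.17 and 0.08 over control, with intervals above 0. Without the 50 most abundant genes the ratio of Gpx1 for old over young was -0.022 in the band of 3 to under 10, so that it was not the highest there. Prdx1, Prdx2 and Gpx1 were 3 of the 7 members with at least 10 CPM in each band, while 14.1% of the 4957 genes compared were likewise highest in the old library in all 5 bands. No member was lowest in the old library in all 5 bands, against 14.8% of genes. With cells that carry other markers kept in the bands, Gpx1 alone of the members remained above both others throughout.

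**Figure D5:**
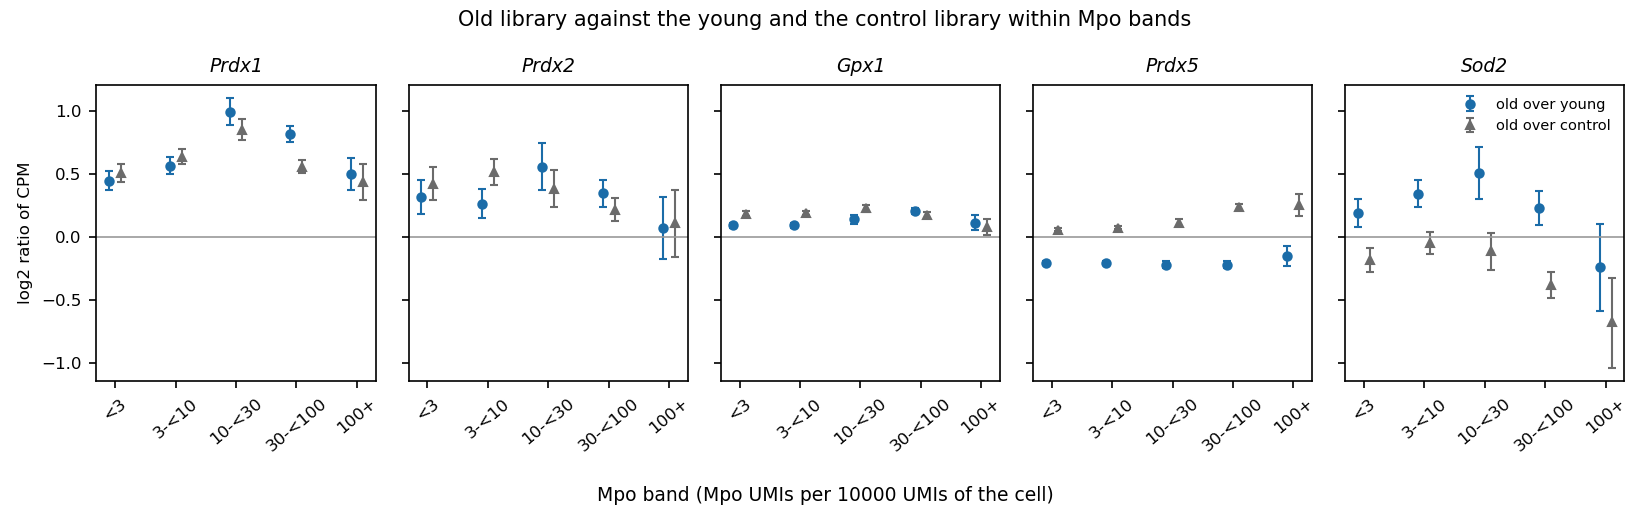
Log2 ratio of CPM of the old library over the young (circles) and over the control library (triangles) on the y axis, in 5 bands of Mpo UMIs per 10000 UMIs on the x axis, with exact 95% counting intervals. Prdx1 lies between 0.43 and 0.99, Gpx1 between 0.08 and 0.23, Prdx5 below 0 against young and above 0 against control, and Sod2 reaches -0.68 against control in the last band.

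For Prdx5 the 2 libraries labelled 3 months lay on either side of the old one: the log2 ratio of old over young was -0.22 to -0.15 and that of old over control 0.06 to 0.25 over the bands. Without the 50 most abundant genes the ratio of old over control was -0.03 in each of the lowest 2 bands, so that this order did not hold there. Sod2 showed the reverse order in 4 bands, with log2 ratios of old over young of 0.19 to 0.50 and of old over control of -0.38 to -0.05, although the latter intervals held 0 in the bands of 3 to under 10 and 10 to under 30. Prdx3 had log2 ratios of old over young of 0.26 to 0.39 in the upper 4 bands, with an interval that held 0 in the highest, and of old over control of -0.07 to 0.06 with intervals that held 0. Prdx6 was lower in the old library in the lowest band, with log2 ratios of -0.29 (-0.33 to -0.24) against young and -0.30 (-0.34 to -0.26) against control, and its intervals against control held 0 in the highest 2 bands. For Sod1 and Cat the intervals against young held 0 in each band.

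The late gene bands show whether this holds among cells with little Mpo. With fewer than 5 late gene UMIs per 10000, Prdx1 was at 149 CPM in old, 89.9 CPM in young and 93.1 CPM in control cells, a log2 ratio of old over young of 0.73 (0.60 to 0.85) and of old over control of 0.67. In the band of 5 to under 20 these ratios were 0.49 and 0.68. In the highest late gene band old cells lay above control cells by 0.94 (0.52 to 1.39), but below young cells, with a log2 ratio of -0.28 (-0.52 to -0.03). Gpx1 in old cells was above young cells by 0.11 to 0.14 and above control cells by 0.21 to 0.29 in the 3 late gene bands, and the log2 ratio of old over young for Prdx6 was -0.39 to -0.19.

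Other antioxidant genes were followed through a list of 66, of which 41 had at least 10 CPM in either end of the Mpo bands. In the highest Mpo band 20 of the 41 were more than 1.5-fold higher and 8 more than 1.5-fold lower in all 3 libraries, beside 48% and 7.35% of all genes compared. Of the 3 named for the highest ratios, Mt1, a metallothionein that binds zinc and copper, was at 682 (young), 857 (old) and 725 CPM (control) in the highest and 47.7 to 67.7 CPM in the lowest band. Gstm1, a glutathione transferase, was at 1019, 936 and 822 CPM against 66.0 to 79.6 CPM, and Pon3, a paraoxonase, at 14.8, 11 and 12.7 CPM against 0.851 to 1.55 CPM. Their mean log2 ratios were 3.80, 3.68 and 3.59, and Pon3 reached the minimum level through the highest band alone.

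The 3 named for the lowest ratios were picked by that ratio, so their direction across the Mpo bands follows from the rule. Hmox1, which breaks down haem, was at 13.9 (young), 22.3 (old) and 15.5 CPM (control) in the lowest band and at 5.18, 5.09 and 3.81 CPM in the highest. Hmox1 reached the minimum level through the lowest band alone, and its values in the highest band rested on 33, 6 and 12 UMIs. Mgst1, a microsomal glutathione transferase, was at 578, 615 and 481 CPM against 204, 271 and 154 CPM. Ucp2, a carrier of the inner mitochondrial membrane, was at 109, 95 and 83.8 CPM against 61.4, 39.9 and 40.6 CPM. Among families, to be read against the same 48% and 7.35% of all genes, 3 of 4 glutaredoxins (Glrx2, Glrx3 and Glrx5) were higher with Mpo and Glrx was lower. Of 7 glutathione transferases at the minimum level, 5 were higher (Gstm1, Gstp1, Gsto1, Gstz1 and Mgst3) and Mgst1 was lower. Txn2 and Txnrd2, the thioredoxin and the thioredoxin reductase of mitochondria, were higher, and Txnip, which binds thioredoxin, was lower.

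Between libraries, Gpx3, the secreted glutathione peroxidase, was the 1 listed gene past 1.5-fold the same way in old over young and old over control. Of the 66, 39 and 38 were at the minimum level in these comparisons. Of all genes, 4.36% and 5.37% were higher, and the share higher in both was not counted. Gpx3 was named by this rule, so its levels by band are drawn from the same values. Gpx3 was at 33.0 CPM in old, 17.6 CPM in young and 18.2 CPM in control cells. Its log2 ratios were 0.91 (0.82 to 1.0) over young and 0.86 (0.78 to 0.94) over control. By band it was at 20.1, 31.7, 57.8, 48.8 and 40.8 CPM in old, 9.27, 13.9, 28.4, 28.0 and 34.8 CPM in young and 14.1, 14.3, 25.4, 27.3 and 29.8 CPM in control cells. Gpx3 was thus highest in the old library in each band, although in the highest band, with 48 UMIs in old cells, its interval of 30.0 to 54.0 CPM overlapped those of the young (30.4 to 39.7) and the control library (24.1 to 36.5).

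Over all kept cells, 2 of the 39 listed genes at the minimum level were higher in old than in young cells (Gpx3 and Gclm) and 4 were lower (Mgst3, Gstp1, Blvrb and Sepw1), beside 4.36% and 14.7% of all genes. Against control, 1 of 38 was higher and 0 were lower, beside 5.37% and 8.78%. Between control and young cells, 1 of 39 was higher (Gclm) and 4 were lower (Mgst3, Blvrb, Sepw1 and Ucp2), beside 1.59% and 6.62%. These counts include the cells with markers of other blood cells, which held 8.17% of UMIs in the young library. Counts without them are not given here. Gclm, the modifier subunit of the enzyme that starts glutathione synthesis, was at 145 CPM in old, 98.2 CPM in control and 56.1 CPM in young cells, so that the 2 libraries labelled 3 months differed by 0.81 on the log2 scale. In the bands, 8 of 36 listed genes were highest in the old library in all 5, Gpx3, Gclm, Mgst1, Msrb1, Fth1, Ftl1, Mt1 and Pon2, and 0 were lowest, beside 14.1% and 14.8% of all genes.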

How the data were processed

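CD133+ bone marrow cells of 3 libraries were analysed. The deposited files hold raw UMI counts for 27998 genes in each cell, which the authors made with STAR and Cell Ranger 2.1.0 on mm10 per the labels. Following the study's methods, cells with fewer than 200 genes, more than 20% mitochondrial UMIs, or a UMI count outside the 5th to 95th percentile (young and old together, control alone) were left out. No doublet caller was run. Depth of kept cells was 74708327 (young), 119588365 (old) and 95980225 (control) UMIs.

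UMIs were summed over cells. Ratios carry conditional binomial and shares Clopper-Pearson intervals, and genes under 10 CPM in both groups were not counted. The limit of 1.5-fold is a limit of size with no error rate, and no test between groups was made. The steps were tested on simulated counts. The members, gene lists, rule for named genes and band edges were chosen with earlier results of these data known. Of the gene IDs, 27645 were in GENCODE M21. Named genes were the members, listed genes past 1.5-fold in old against both other libraries, the 3 highest and 3 lowest listed genes by Mpo ratio, and the 3 genes most like each member. Alternatives covered cell filters, scaling, limits, band edges, band gene and thinning. Python 3.11.15, numpy 2.4.6 and scipy 1.17.1 were used.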

Additional observations from a re-analysis of the deposited data

Results flagged for a closer look

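Cells above the upper UMI limit, 171 young, 776 old and 544 control, were left out of the comparisons. In the young ones 4 members had levels past a margin set against control and kept young cells. Their lower interval bound was more than 1.5 times the upper bound in the control ones. It was also more than 1.5 times the level in kept young cells. The share of all genes past this margin was not counted, so the 4 are not a result about the members as a group. Prdx1 was at 469 CPM in these young cells, beside 279 CPM in the control ones and 226 CPM in kept young cells. Prdx2 was at 386 CPM, beside 98.2 and 73.1 CPM. Prdx4 was at 51.3 CPM, beside 2.47 and 14.8 CPM, and Sod1 was at 39.98 CPM, beside 16.3 and 16.7 CPM. Prdx3, at 97.6 CPM beside 58.9 and 33.2 CPM, and Cat, at 20.8 CPM beside 12.4 and 11.5 CPM, were above both by more than the counting error but by less than that margin. The control library had a limit of its own, while the young and the old library shared 1, so control cells were chosen at an unlike limit. Old cells above the shared limit were at 331 CPM (Prdx1), 82.7 CPM (Prdx2), 3.84 CPM (Prdx4) and 17.5 CPM (Sod1). The part of doublets and of other blood cells in these values was not tested.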

How the results depend on the processing

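With 1 library per group, there is no measure of the spread between mice. No paired analysis was possible because each group is 1 library. The count of members past 1.5-fold across the Mpo bands ranged from 5 to 8 over the settings. Gpx1 was not among them without the 50 most abundant genes. The share of all genes is given here for the main setting alone, so the other counts have none beside them. The range is therefore not a result about the members. In the main setting 7 were counted, beside 48% of all genes higher and 7.35% lower. Shares in brackets are those of all genes past the same limit, in either direction. For old over young, 1 member was counted (19.1%), and 2 without a UMI limit (Prdx4 and Cat, 18.2%) or with the 10th to 90th percentile (Prdx4 and Sod1, 20.1%), 0 at 50 CPM or more (13.3%), 3 at a lower limit of size (41.6%) and 0 without cells with other markers (15.6%). With equal bands the count stayed at 1 (12.1%), but the gene was Prdx1, higher, in place of Prdx4, lower. For old over control, 0 were counted (14.1%), and 1 (Prdx1) as UMIs per cell (20.1%) or at that lower limit (37.8%). For control over young, 2 were counted (8.21%), and 0 at 50 CPM or more (6.35%), 1 at 2-fold (3.75%), 5 at the lower limit (23.8%), 0 with equal bands (7.95%) and 0 without cells with other markers (6.12%). For the late gene bands, 1 was counted (27.7%), and 5 as UMIs per cell (64.9%), and 0 without the 50 most abundant genes (25.5%), at 50 CPM or more (30.1%), at 2-fold (11.03%) or after thinning (25.1%). For old above both or below both other libraries in each band, 3 were counted (28.9%). These 3 were all higher, beside 14.1% of all genes higher and 14.8% lower. The count was 1 with other-marker cells kept (28.03%) and 4 as UMIs per cell (41.9%). It was 2 after thinning (20.7%), without the 50 most abundant genes (29.4%) or at 50 CPM or more (29.8%). The alternatives of this result, and those without other-marker cells, were chosen after seeing the data. Keeping other-marker cells did not apply to library comparisons, which hold them. Of 326 alternative values of single ratios, 151 moved. For library ratios this means beyond the counting interval of the main value, and for band ratios beyond the range of the 3 libraries. The 1 value past 1.5-fold that changed sign was that of Gpx1 across the Mpo bands (-0.055 without the 50 most abundant genes).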
